A study of Mus musculus with 29 samples.

Results

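Glutathione S-transferases (GSTs) were followed in mouse atria as 10 genes: Gstm1, Gstm2, Gstm4 and Gstm5 of the mu class, Gstp1 of the pi class, Gsta4 of the alpha class, Gstt1 of the theta class, Gstk1 of the kappa class, and the membrane enzymes Mgst1 and Mgst3. They are 10 of the 55292 gene names in the count files, listed by name, and all 10 passed the filter on low counts. Gstm1 and Gstp1 were picked for their lower level on the high-fat diet in NaV1.5 atria, so that difference is given as a description with no test. The other 8 genes are their relatives on the same list.

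GSTs join the thiol of glutathione to electrophilic compounds, among them products of lipid peroxidation, and so make them soluble and ready for export. The cytosolic classes work as dimers, Gstk1 lies in mitochondria and peroxisomes, and Mgst1 and Mgst3 sit in membranes. Many GST genes carry antioxidant response elements, the sites bound by the transcription factor NRF2 (gene Nfe2l2), which KEAP1 holds back. The heart depends on oxidative metabolism, and GSTs are part of its defence against the reactive by-products.

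The libraries came from polyA RNA of whole atria of male mice, 29 in 6 groups. Ctrl_RD held 4 control libraries on regular diet, Ctrl_HFD held 4 control libraries on high-fat diet, NaV1.5_RD held 4 libraries of NaV1.5 transgenic mice on regular diet and NaV1.5_HFD held 5 of NaV1.5 mice on high-fat diet. The vehicle group (5 libraries) and the NR group (7 libraries) were also NaV1.5 mice on high-fat diet, given vehicle or nicotinamide riboside, a precursor of NAD+. The high-fat diet lasted 4 weeks and began at 5 weeks of age. The promoter that drives the NaV1.5 transgene, the strain and whether each library is a separate animal are not given in the sources used here, so p-values measure the spread between libraries. All libraries of the first 4 groups were labelled batch 1 except Ctrl_HFD replicate 4, which was batch 2. All vehicle libraries were batch 3, NR replicates 1 to 5 were batch 2, and NR replicates 6 and 7 were batch 3.

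Library totals ran from 13189995 to 33061018 read pairs in genes, and the 10 GST genes had from 183 counts (Gstm4, lowest library) to 12127 (Gstm1, highest library). The 5 cardiomyocyte markers (Myl7, Myl4, Nppa, Sln and Myh6) summed to 21248 to 72001 normalised counts (CPM) per library, and the 4 markers of hepatocytes, cells rich in GSTs, to at most 6.41 CPM. Of the ventricular markers, Myl2 ran from 0.49 CPM in a vehicle library to 288 CPM in an NR library, and from 9.6 to 206 CPM in NaV1.5_RD. Hey2 stayed between 1.2 and 3.2 CPM in every group. The part of ventricular tissue in the GST values was not tested. Because whole atria were used, fewer cells of a type and less RNA per cell cannot be told apart.

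The mu class genes lie together on chromosome 3 (GRCm38, annotation used for counting). Gstm5 is at chr3:107895821-107898686 on the plus strand. Gstm2 is at chr3:107981702-107986453, Gstm1 at chr3:108012255-108017973 and Gstm4 at chr3:108040408-108044894, these 3 on the minus strand. Gstp1 is at chr19:4035407-4037985 (minus), Gsta4 at chr9:78182774-78209349 (plus), Gstt1 at chr10:75783813-75798584 (minus), Gstk1 at chr6:42245935-42250447 (plus), Mgst1 at chr6:138140316-138156755 (plus) and Mgst3 at chr1:167371966-167393841 (minus). Their exons together cover 1097 bases (Mgst3) to 2013 bases (Mgst1). The genes are short: 9 of the 10 were among the shortest 20% of the genes tested, a class that ended at 1959 bases.

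Some of these genes resemble neighbours closely, and read pairs that mapped to several places or genes were left out by the authors. Of all windows of 50 bases in the Gstp1 transcripts, 33.7% also occurred in transcripts of Gstp2 or Gstp-ps. The share was 18.9% for Gstm1 (shared with Gstm2-ps1, Gstm3, Gm8834 and Gstm2) and 5.65% for Gstm2. For Gstm5 it was 9.44%, all with 4933431E20Rik, an antisense gene that overlaps 178 bases of its exons and cannot be separated because strand was not used in counting. The other 6 genes shared 0 such windows. The levels of Gstm1 and Gstp1 therefore rest on the part of their transcripts that is unique, and read pairs over both Gstm5 and its antisense neighbour were not counted. Of the close copies, Gstp2 averaged 4.74 ± 1.12 CPM (SD, n = 4) in Ctrl_RD, and Gstm3 had 0 or 1 count in every library.

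Because NRF2 acts on GST promoters through the antioxidant response element, the start-site windows of the members were read from RefSeq (GRCm38.p6, 250 bases before to 50 after each start). A window was found for 9 of the 10 genes, and Gsta4 is named only. The core motif TGACNNNGC was searched on both strands and occurred in 12.4% of all 32851 windows of the same length. It was found for Gstm5, 42 bases upstream of the RefSeq start, and for Mgst1, 56 bases upstream of a RefSeq start on the opposite strand. The stretches around these matches lie at chr3:107895792-107895840 and chr6:138140451-138140499. The Mgst1 stretch falls within the gene span used for counting, which begins at chr6:138140316. The other Mgst1 window, at chr6:138141337-138141636, held no match. These stretches are shown because they hold the only matches among the members, with the match in capitals:
Gstm5: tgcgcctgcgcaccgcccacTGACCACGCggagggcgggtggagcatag
Mgst1: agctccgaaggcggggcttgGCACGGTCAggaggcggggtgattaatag

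The windows of Gstm1 and Gstp1 are shown because both genes were lower in the same group. The Gstm1 window is the one at chr3:108017769-108018068 (minus strand), and the Gstp1 window lies at chr19:4037863-4038162 (minus strand). Neither held the core TGACNNNGC. The palindromic E-box CACGTG, which occurred in 7.15% of all windows, was in no window of the 9 genes. The Gstp1 window held 1 AP-1 site, TGAGTCA (in capitals, searched on both strands), 74 bases upstream of the start. That site, chosen for the search after the Gstp1 window had been read, occurred in 5.2% of all windows and also in that of Gstm5, 176 bases upstream, where it did not overlap the antioxidant core. These are letter matches in short windows and carry no evidence on binding:
Gstm1: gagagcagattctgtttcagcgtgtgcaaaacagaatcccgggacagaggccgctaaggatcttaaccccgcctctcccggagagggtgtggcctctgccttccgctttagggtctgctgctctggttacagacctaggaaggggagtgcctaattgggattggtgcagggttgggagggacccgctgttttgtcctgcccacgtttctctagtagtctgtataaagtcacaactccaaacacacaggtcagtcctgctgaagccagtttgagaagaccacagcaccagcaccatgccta
Gstp1: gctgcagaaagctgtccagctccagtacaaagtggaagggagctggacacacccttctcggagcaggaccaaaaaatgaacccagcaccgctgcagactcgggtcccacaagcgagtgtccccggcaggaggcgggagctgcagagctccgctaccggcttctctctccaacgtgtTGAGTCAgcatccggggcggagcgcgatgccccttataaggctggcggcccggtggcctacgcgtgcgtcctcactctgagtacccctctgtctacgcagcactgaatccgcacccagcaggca

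Gstm1 was the most abundant GST of control atria. Per kilobase of exon, it stood at 289.1 ± 16.2 CPM (SD, n = 4) in Ctrl_RD. Mgst3, a membrane enzyme that also reduces lipid hydroperoxides, followed at 184.2 ± 23.2 CPM per kilobase, and Gstm2 came next at 104.8 ± 12.3. The ranges of Gstm1 and Mgst3 did not overlap, nor did those of Mgst3 and Gstm2. Gsta4 (86.8 ± 14.2), an enzyme with high activity on 4-hydroxynonenal, Gstm5 (76.5 ± 16.8), Gstk1 (76.4 ± 15.2), Gstp1 (59.4 ± 2.7) and Gstt1 (57.5 ± 4.7) formed a run in which each range overlapped the next. Mgst1 (35.1 ± 6.4) and Gstm4 (13.6 ± 0.67) came last, each apart from its neighbour above. Scaling as TPM (each gene's count per exon length as a share of that sum over all genes) gave the same order. Both scales divide by full exon length, although read pairs in shared stretches were left out. Gstm1, Gstm2, Gstm5 and Gstp1 may therefore read low beside the other genes.

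Gstm1 made up 29.6 ± 2.6% of the summed GST level per kilobase in Ctrl_RD, 26.6 ± 1.7% in Ctrl_HFD, 28.2 ± 3.9% in NaV1.5_RD and 22.9 ± 1.4% in NaV1.5_HFD (SD, n = 4, 4, 4 and 5). In NaV1.5_HFD the first place passed to Mgst3 (232.3 ± 16.5 CPM per kilobase) over Gstm1 (223.4 ± 17.1), with overlapping ranges. The limit from shared stretches applies to this order too. The summed level was 983 ± 88 CPM per kilobase in Ctrl_RD, 988 ± 99 in Ctrl_HFD, 1086 ± 152 in NaV1.5_RD and 974 ± 54 in NaV1.5_HFD, with overlapping ranges. On the TPM scale, added after these data were seen, it was 1914 ± 76, 1808 ± 32, 2046 ± 115 and 1781 ± 75, and the ranges of NaV1.5_RD and NaV1.5_HFD did not overlap.

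**Figure D1:**
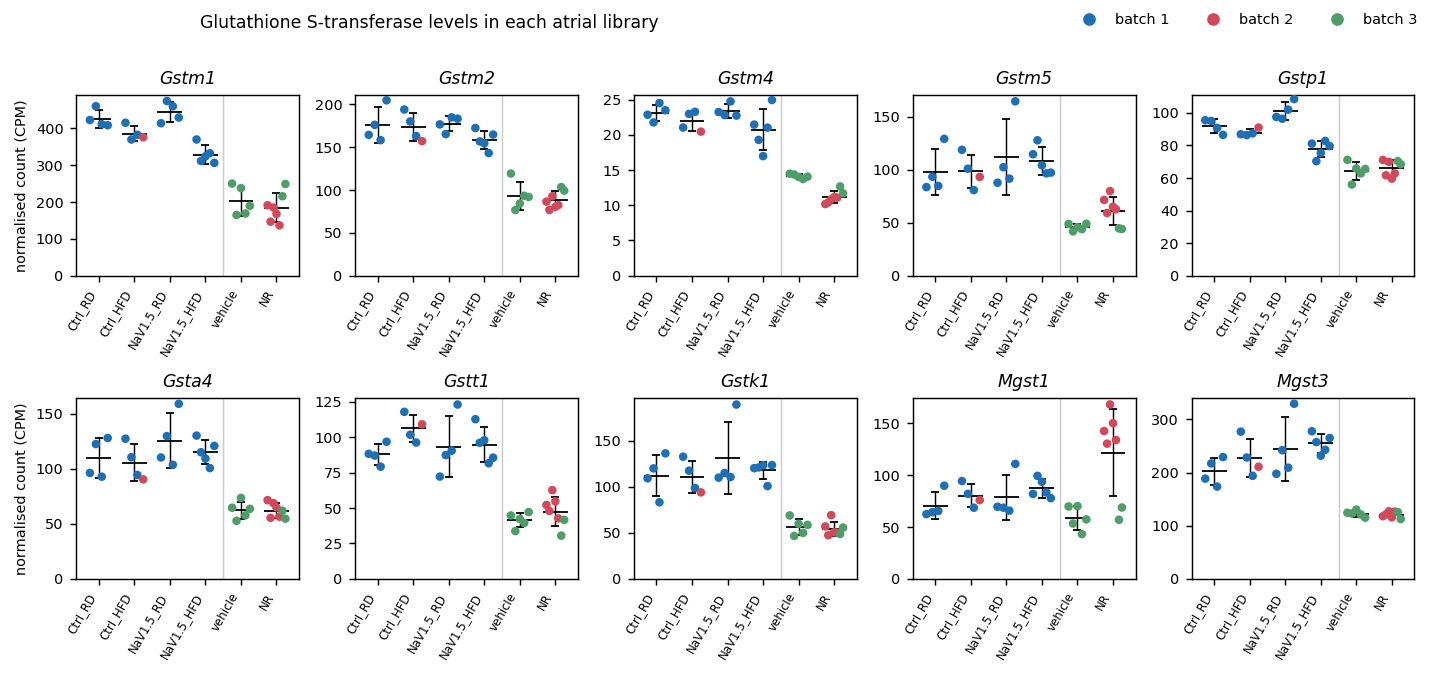
Normalised count (CPM) of each of the 10 GST genes in every library, by group; points are libraries coloured by the batch in the labels, and the horizontal and vertical black lines give the group mean and SD. Gstm1 and Gstp1 sit lower in NaV1.5_HFD than in NaV1.5_RD without overlap, Mgst1 is high only in the 5 NR libraries of batch 2, and on this scale 9 of the genes have lower means in the vehicle and NR groups than in the 4 diet groups (8 as TPM).

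The first question the design poses is what the high-fat diet does in NaV1.5 atria, and it is the contrast by which Gstm1 and Gstp1 were chosen. Gstm1 stood at 414.1, 474.4, 460.2 and 429.6 CPM in the 4 NaV1.5_RD libraries and at 370.0, 311.7, 324.3, 332.8 and 306.4 CPM in the 5 NaV1.5_HFD libraries. Every high-fat library lay below every regular-diet library. The fitted log2 difference was -0.44 (SE 0.08), a level 0.737 times that on regular diet. Gstp1, whose enzyme also binds and restrains stress kinases, stood at 97.5, 96.4, 102.0 and 108.5 CPM on regular diet and at 81.1, 70.3, 75.4, 82.8 and 79.6 CPM on high-fat diet. Again the groups did not overlap, nor did they as TPM for either gene, and the log2 difference was -0.38 (SE 0.07), or 0.767 times. In this contrast 1.13% of the 16168 genes tested passed an adjusted p of 0.05, and 3063 had an unadjusted p under 0.05 (edgeR). These figures are printed for scale, since the 2 genes were chosen by this contrast. The share of all genes whose groups did not overlap was not counted.

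The other 8 genes had overlapping ranges in the same contrast. Their log2 differences ran from -0.18 for Gstm4 to 0.14 for Mgst1, with a median of -0.09 beside -0.01 over all genes tested. Gstm2, the chromosomal neighbour of Gstm1, differed by -0.17 (SE 0.09), from 165.4 to 184.9 CPM on regular diet to 143.2 to 172.5 CPM on high-fat diet. Gstm4 differed by -0.18 (SE 0.09), Gstk1 by -0.16 (SE 0.16), Gsta4 by -0.13 (SE 0.13) and Gstm5 by -0.05 (SE 0.18). Gstt1 (0.02, SE 0.12), Mgst3 (0.05, SE 0.13) and Mgst1 (0.14, SE 0.15) lay above 0. Within the mu class the fitted ratios ran from 0.737 for Gstm1 to 0.966 for Gstm5, and the difference between genes was not tested.

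One library weighed on these 8 values. NaV1.5_RD replicate 4 was the highest of its group for 7 of the 10 GST genes, with a median log2 difference of 0.52 from the other 3 libraries. Mgst3 read 329.4 CPM there against 197.7 to 242.1 in the other 3, Gstk1 189.3 against 109.9 to 115.0, and Gstm5 164.7 against 87.8 to 102.4. Over all genes tested, the shortest 20% lay 0.20 higher in this library than in the other 3 (median log2) and the longest 20% lay 0.11 lower, and 9 of the 10 GST genes belong to the shortest class. Ctrl_RD replicate 4 and Ctrl_HFD replicate 1 were likewise the highest of their groups for 7 and 8 genes, with the shortest 20% of genes at 0.12 and 0.08. The part of transcript length in the GST values was not tested beyond a fit with offsets for GC content and length.

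Without NaV1.5_RD replicate 4, the log2 differences with the diet became 0.20 for Gstm5, 0.07 for Gstk1, 0.003 for Gsta4, 0.18 for Gstt1, 0.23 for Mgst3 and 0.35 for Mgst1, and the median of all 10 genes went from -0.15 to 0.04. Gstm5, Gstk1 and Gsta4 changed sign. Gstm1 (-0.46) and Gstp1 (-0.35) stayed close to the values with it, as did Gstm2 and Gstm4. With offsets for GC content and length, Gstm1 differed by -0.35 and Gstp1 by -0.26.

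**Figure D2:**
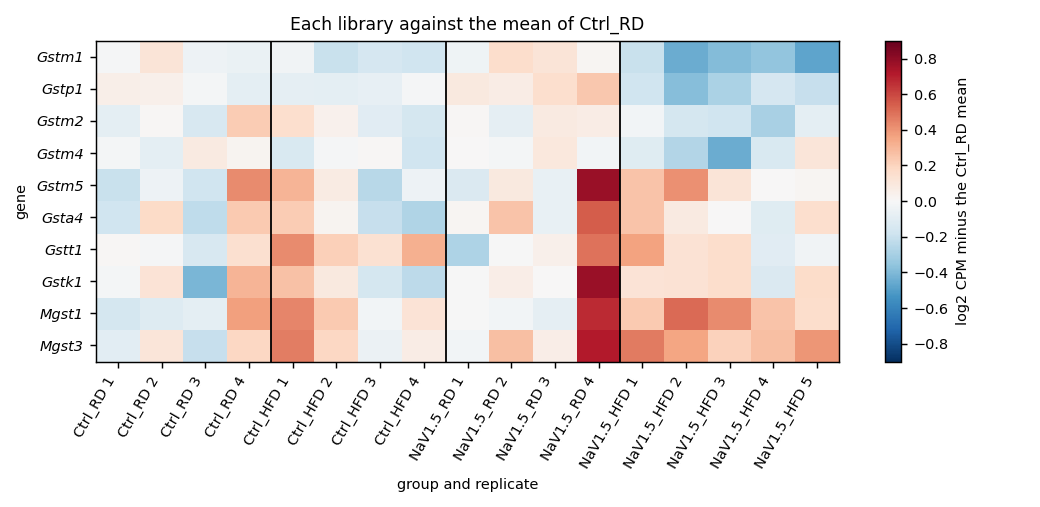
Log2 CPM of each GST gene in the 17 libraries of the diet groups, minus the mean of Ctrl_RD for that gene (red higher, blue lower); columns are libraries by group and replicate. The Gstm1 and Gstp1 rows are blue across the 5 NaV1.5_HFD libraries, while 6 lower rows are deep red in NaV1.5_RD replicate 4.

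**Figure D3:**
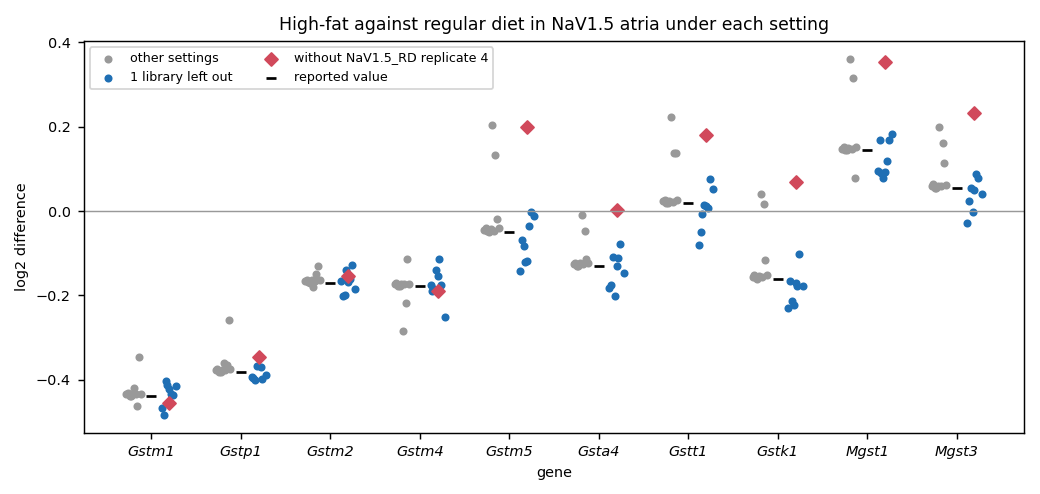
Log2 difference between high-fat and regular diet in NaV1.5 atria for each gene, as reported (black dash), with 1 library left out at a time (blue, red diamond for NaV1.5_RD replicate 4) and under the other settings of the fit (grey). Gstm1, Gstp1, Gstm2 and Gstm4 stay below 0 at every point, while Gstm5, Gsta4 and Gstk1 cross 0 when NaV1.5_RD replicate 4 is left out. Gstt1 (-0.08) and Mgst3 (-0.03) cross 0 when NaV1.5_RD replicate 1 is left out. Gstt1 also crosses 0 without NaV1.5_HFD replicate 1 (-0.05) and without NaV1.5_RD replicate 2 (-0.006). With limma-voom Gstm5 (0.13) and Gstk1 (0.02) lie above 0.

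Some markers of cardiomyocytes also differed with the diet. The sum of the 5 cardiomyocyte markers was 63918 to 71488 CPM in NaV1.5_RD and 53919 to 60833 CPM in NaV1.5_HFD, and 67403 to 72001 CPM in Ctrl_RD and 59348 to 65902 CPM in Ctrl_HFD, with no overlap in either genotype. The markers did not move as one. Nppa, which codes for atrial natriuretic peptide, averaged 22822 CPM in NaV1.5_RD and 16923 CPM in NaV1.5_HFD and was the 1 marker of the 5 whose ranges did not overlap. Myh6 averaged 17448 and 13308 CPM, Myl7 9509 and 8328, Myl4 13268 and 12956, and Sln 4649 and 4790. In controls the means of Myl7, Myl4 and Sln were higher on high-fat diet and those of Nppa and Myh6 lower. The adipocyte sum was 0.53 to 42.3 CPM in NaV1.5_RD and 0.06 to 10.1 CPM in NaV1.5_HFD, and the erythroid sum 445 to 2823 CPM and 931 to 3124 CPM, both with overlap. The part of these values in the lower Gstm1 and Gstp1 was not tested.

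In control atria the same diet was compared in libraries that took no part in the choice of genes. None of the 10 GST genes passed the test (edgeR quasi-likelihood F-test, Benjamini-Hochberg adjustment over 16168 genes), against a background of 0% (0 genes called, 1372 at an unadjusted p under 0.05, 19 called by DESeq2 and 75 by limma-voom). Gstm1 stood at 422.9, 460.4, 411.4 and 408.8 CPM in Ctrl_RD and at 415.5, 370.0, 382.6 and 376.0 CPM in Ctrl_HFD. The groups overlapped through 1 high-fat library, and the log2 difference was -0.13 (95% interval -0.31 to 0.05, adjusted p = 0.691). Gstp1 stood at 86.5 to 95.5 CPM on regular diet and 86.4 to 91.0 CPM on high-fat diet, a log2 difference of -0.09 (-0.24 to 0.07, adjusted p = 0.768).

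Of the other genes, Gstt1, a theta class enzyme, had the lowest adjusted p in control atria. It stood at 88.3, 87.0, 79.2 and 96.8 CPM on regular diet and at 117.9, 101.7, 96.2 and 109.1 CPM on high-fat diet, a log2 difference of 0.26 (-0.02 to 0.53, adjusted p = 0.627). Mgst1 (0.21, -0.12 to 0.54) and Mgst3 (0.20, -0.10 to 0.50) also lay above 0, and Gstm2, Gstm4, Gstm5, Gsta4 and Gstk1 lay between -0.05 and 0.05. The median over the 10 genes was 0.03, beside -0.005 over all genes. Single libraries moved these values: without Ctrl_HFD replicate 1, Mgst1 was 0.09 and Mgst3 0.06, 7 of the 10 genes lay below 0 and the median was -0.05. Without Ctrl_RD replicate 4 the median was 0.13, with Gstm5 at 0.20, and without Ctrl_HFD replicate 3 it was 0.14, with Gstk1 at 0.16. Ctrl_HFD replicate 4, the only batch 2 library of this fit, is absorbed by the batch term, so these values rest on 3 high-fat libraries.

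Whether the diet acted differently in the 2 genotypes was tested as an interaction. No gene of the 16168 passed (0% called, 366 at an unadjusted p under 0.05, 0 by DESeq2 and 0 by limma-voom), and with that 0 of the 8 GST genes that could be tested. All 10 values lay below 0, with a median of -0.17 beside -0.01 over all genes. For the tested genes they ran from -0.24 (Gstt1, 95% interval -0.61 to 0.13) to -0.06 (Mgst1, -0.51 to 0.38), each with an adjusted p of 1.00. For Gstm1 the value was -0.31 (SE 0.12) and for Gstp1 -0.30 (SE 0.10), a description, since the interaction contains the contrast that chose them. Without NaV1.5_RD replicate 4, 6 of the 10 values lay below 0, and the median was -0.04.

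The genotype was compared on each diet. On regular diet, 0 of the 8 testable GST genes passed, against a background of 0.0124% (988 genes at an unadjusted p under 0.05). The 10 fitted values ran from 0.02 (Gstm2 and Gstm4) to 0.28 (Mgst3), with a median log2 difference of 0.15 beside 0.01 over all genes. With GC and length offsets 3 of the 10 lay below 0 and the median was 0.08. With a replicate block 6 lay below 0 and the median was -0.02. That fit also left out NaV1.5_RD replicate 4 and Ctrl_RD replicate 1, whose labels hold no number, so block and omission are mixed in it. Mgst3 differed by 0.28 (95% interval -0.001 to 0.55, adjusted p = 0.831) and Gstk1 by 0.23 (-0.10 to 0.55, adjusted p = 0.869). Without NaV1.5_RD replicate 4, 5 of the 10 values lay below 0 and the median was 0.01, with Mgst3 at 0.10 and Gstk1 at -0.003. Gstp1, as a description, was higher in each NaV1.5_RD library (96.4 to 108.5 CPM) than in any Ctrl_RD library (86.5 to 95.5 CPM), and its log2 difference was 0.14 (SE 0.07), or 0.07 with GC and length offsets.

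On high-fat diet, 0 of the 8 testable genes passed, against 0.0866% of all genes (1301 at an unadjusted p under 0.05). Gstm2 differed by -0.18 (95% interval -0.36 to 0.005, adjusted p = 0.688), Gstt1 by -0.15 (-0.41 to 0.11) and Mgst3 by 0.13 (-0.16 to 0.42). Without Ctrl_HFD replicate 1 Mgst3 was 0.27 and Gstt1 -0.07, and without Ctrl_HFD replicate 3 Mgst3 was 0.01 and 9 of the 10 genes lay below 0. Gstm1 and Gstp1 are given as a description, since the NaV1.5_HFD libraries took part in their choice. Gstm1 was lower in all 5 NaV1.5_HFD libraries (306.4 to 370.0 CPM) than in the 3 batch 1 libraries of Ctrl_HFD (370.04 to 415.5 CPM), by a log2 difference of -0.24 (SE 0.09). The highest NaV1.5_HFD library and the lowest Ctrl_HFD library were almost level. Gstp1 stood at 70.3 to 82.8 CPM against 86.4 to 87.5 CPM, a log2 difference of -0.16 (SE 0.07).

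**Figure D4:**
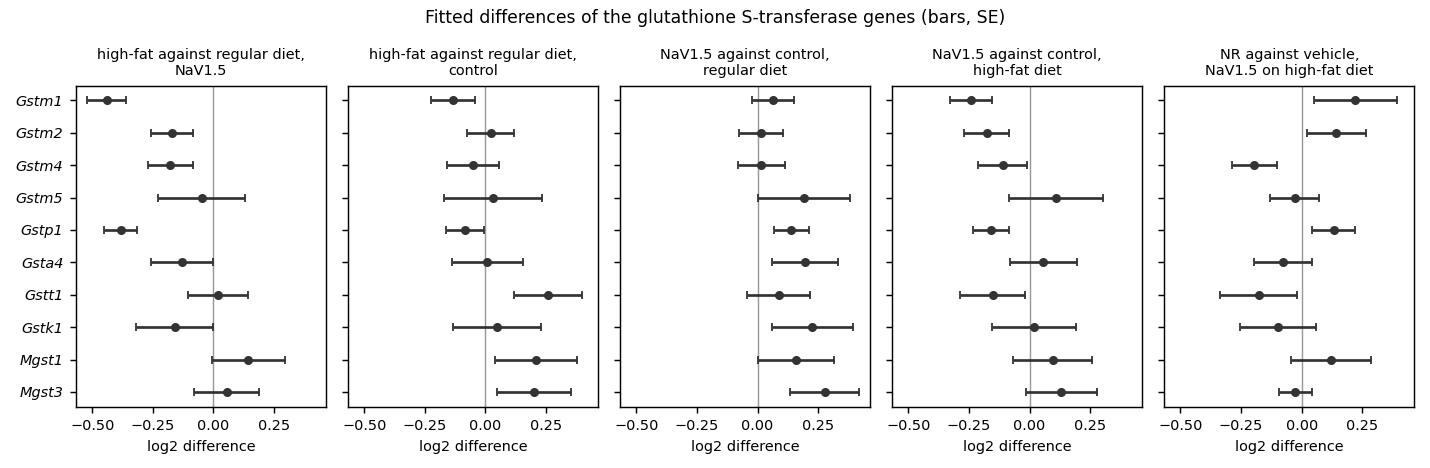
Fitted log2 differences of the 10 GST genes in 5 comparisons, with SE as bars; a value above 0 means higher in the group named first. Gstm1 and Gstp1 lie farthest below 0 in the first panel, which is the contrast that chose them, and none of the genes tested passed an adjusted p of 0.05 in the other 4 panels.

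Nicotinamide riboside was compared with vehicle in NaV1.5 mice on high-fat diet, again in libraries that took no part in the choice. None of the 10 GST genes passed, against a background of 0.425% of 16482 genes (1829 at an unadjusted p under 0.05). With batch in the fit, the difference rests on 2 NR and 5 vehicle libraries, all of batch 3. Gstm1 stood at 250.2, 165.1, 238.0, 168.9 and 189.8 CPM with vehicle and at 215.8 and 249.1 CPM with NR in batch 3, a log2 difference of 0.22 (95% interval -0.11 to 0.56, adjusted p = 0.712). The 2 NR libraries fell within the vehicle range, and the value was 0.11 without NR replicate 7 and 0.34 without NR replicate 6. Gstp1 differed by 0.13 (-0.04 to 0.30, adjusted p = 0.649), with 56.0 to 71.2 CPM against 68.5 and 70.4 CPM.

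Gstm4, the least abundant of the 10, came nearest to the threshold. It stood at 14.48, 14.36, 14.02, 13.72 and 14.06 CPM with vehicle and at 12.7 and 11.7 CPM with NR in batch 3, a log2 difference of -0.19 (95% interval -0.37 to -0.02, unadjusted p = 0.0489, adjusted p = 0.447). The 5 NR libraries of batch 2 stood at 10.2 to 11.2 CPM, also below vehicle, but treatment and batch cannot be told apart for them and their cell type markers differed, as given with Mgst1. Without NR replicate 7 the difference was -0.14. Gstt1 differed by -0.18 (-0.49 to 0.13), and its sign rested on 1 library, being 0.04 without NR replicate 6 and -0.43 without NR replicate 7. Mgst3 was level, at 115.1 to 130.3 CPM with vehicle and 112.6 to 127.1 CPM over all 7 NR libraries.

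Mgst1 separated the batches of the NR group. It stood at 142.7, 130.5, 168.4, 150.3 and 134.0 CPM in the 5 NR libraries of batch 2 but at 57.0 and 68.9 CPM in the 2 of batch 3, where vehicle ranged from 43.2 to 70.2 CPM. The log2 difference within batch 3 was 0.12 (95% interval -0.20 to 0.45, adjusted p = 0.863), going to -0.03 without NR replicate 7 and 0.27 without NR replicate 6, and between NR of batch 2 and vehicle it was 1.29. In batch 2 NR libraries Mgst1 ranked 3 among the 10 genes by level per kilobase (72.1 ± 7.5 CPM, SD, n = 5), and with vehicle it ranked 8. Gstm5 followed the same split on a smaller scale and read 59.2 to 79.9 CPM in NR of batch 2, 44.1 and 44.7 CPM in NR of batch 3 and 41.9 to 49.0 CPM with vehicle. Over all genes, 9851 of 16310 were called between NR of batch 2 and vehicle, so such a split was not particular to Mgst1 or Gstm5. Treatment and batch cannot be told apart for batch 2. Ctrl_HFD replicate 4, the other batch 2 library, had 76.0 CPM of Mgst1, within the 68.7 to 94.4 CPM of its own group.

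The same 5 NR libraries of batch 2 differed in markers of other cells. The 5 mesothelial markers (Msln, Upk3b, Upk1b, Krt19 and Wt1) summed to 1063 to 1585 CPM there, against 241 to 341 CPM with vehicle and 240.0 to 476 CPM in the 2 NR libraries of batch 3. Each of the 5 was higher in all 5 libraries than in any vehicle library. The same held for each of the 5 erythroid markers, which summed to 2235 to 4951 CPM against 1073 to 1644 CPM with vehicle. Of the 5 endothelial markers, 3 were higher without overlap and 1 had a lower mean. Of the 6 macrophage markers, 2 were higher without overlap and 2 had lower means. All 6 adipocyte markers had higher means, with overlap. Of the 6 fibroblast markers, Dcn (mean 2275 CPM against 1427 with vehicle), Lum and Tcf21 were higher without overlap, Col1a2 was level at 388 and 383 CPM, and Col1a1 and Pdgfra had lower means. Of the 5 cardiomyocyte markers, Myh6 (4863 CPM against 27329) and Nppa (8399 against 14222) were lower without overlap, the ranges of Myl4 and Myl7 overlapped, and Sln had a higher mean (2257 against 1594). Most genes tested were called between these libraries and vehicle, so a split was not particular to these markers. The part of the marker differences in the Mgst1, Gstm5 and Gstm4 levels of these libraries was not tested.

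The level of the GST genes was also set side by side between the vehicle and NR libraries and the diet groups. On the CPM scale the summed level of the 10 genes was 551 ± 49 CPM per kilobase in the 12 vehicle and NR libraries (469 to 637) and 1006 ± 103 in the 17 libraries of the diet groups (886 to 1304), with no overlap. NaV1.5 mice on high-fat diet were in both sets, as NaV1.5_HFD with 974 ± 54 and as vehicle with 535 ± 59 CPM per kilobase. On the TPM scale the sum was 1524 ± 142 in the vehicle and NR libraries (1249 to 1734) and 1881 ± 129 in the diet groups (1666 to 2203), so the ranges overlapped. It was 1781 ± 75 TPM in NaV1.5_HFD and 1445 ± 134 TPM with vehicle. For Gstm1 the means in vehicle and NR and in the diet groups were 192.1 ± 38.5 CPM and 392.4 ± 52.1 CPM, for Mgst3 121.7 ± 5.4 and 233.6 ± 39.2 CPM, and for Gstp1 65.5 ± 5.0 and 89.0 ± 9.7 CPM. Mgst1 was the exception, at 95.5 ± 45.4 and 79.7 ± 14.1 CPM, with its batch 2 NR libraries highest. For Gstp1 the direction depended on the scale, with a mean of 116.8 TPM in vehicle and NR and 108.2 TPM in the diet groups and overlapping ranges, and Gstm4 was level in TPM between vehicle (22.4 ± 0.71) and NaV1.5_HFD (22.2 ± 2.7). Ctrl_HFD replicate 4, a batch 2 library of the diet groups, summed to 929 CPM per kilobase, and the 5 batch 2 NR libraries to 520 to 637. No other batch is on both sides, and the difference was not tested.

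The wider GST family was read from a list of 18 other GST and related genes, of which 12 passed the count filter. With the diet in NaV1.5 atria, 1 of the 12 passed, against 1.13% of all genes, and 11 of the 12 lay below 0 (median -0.21 beside -0.01 over all genes). The gene called was Gstm7, another mu class enzyme, at 55.5 ± 3.4 CPM on regular and 42.4 ± 5.9 CPM on high-fat diet (SD, n = 4 and 5, log2 difference -0.39, SE 0.09, adjusted p = 0.0493). Gstt2 followed at -0.25 (adjusted p = 0.0951) and Gsto1, an omega class thiol transferase, at -0.22 (adjusted p = 0.332). This contrast chose Gstm1 and Gstp1 and the list was drawn up with it known, so these values are a description. Calls over all genes in it went from 4 without NaV1.5_RD replicate 3 to 1138 without NaV1.5_RD replicate 4. In control atria the diet differences were -0.24 (SE 0.09) for Gstt2 and -0.17 (SE 0.14) for Gsto1. In the other 5 comparisons 0 of the 12 passed, where 0% to 0.425% of all genes did. Gstm6 in NaV1.5_HFD against Ctrl_HFD gave the lowest adjusted p there, 0.334, with a log2 difference of -0.46 (SE 0.14).

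Enzymes that make, recycle and use glutathione were read as a list of 32 genes, all tested, and 0 passed in any of the 6 comparisons. Over all genes 0% to 1.13% passed, so 0 of 32 is near the background. With the diet in NaV1.5 atria, 12 lay above 0 and 20 below (median -0.03). The lowest p belonged to Ggt7, a member of the gamma-glutamyltransferase family (log2 -0.62, SE 0.18, adjusted p = 0.0759), and Gpx3, the secreted glutathione peroxidase and with 5209 ± 201 CPM in Ctrl_RD the most abundant of those named here, differed by -0.28 (SE 0.10, adjusted p = 0.125). With the genotype on regular diet, Chac1, which degrades glutathione and is a target of the integrated stress response, differed by 0.66 (SE 0.18, adjusted p = 0.466). With NR, Ggt5 differed by 0.51 (SE 0.15, adjusted p = 0.163) and Slc7a11, the cystine carrier, by -1.24 (SE 0.53, adjusted p = 0.394).

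The NRF2 and antioxidant list of 28 genes also had 0 genes called in each of the 6 comparisons, again near the background of 0% to 1.13% of all genes. With the diet in NaV1.5 atria, 14 lay above and 14 below 0, and Keap1 gave the lowest p (log2 -0.25, SE 0.08, adjusted p = 0.103). Ugdh differed by 0.29 (SE 0.11, adjusted p = 0.180) and Me1 by 0.24 (SE 0.10, adjusted p = 0.191). With NR, G6pdx, the entry enzyme of the pentose phosphate pathway that supplies NADPH, differed by 0.33 (SE 0.09, adjusted p = 0.162) and Nfe2l2 itself by 0.25 (SE 0.09, adjusted p = 0.281).

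The genes most like Gstm1 over the 16 libraries of batch 1, by Pearson correlation of log2 CPM, were Clu (0.92), 9630028I04Rik (0.91), Eml2 (0.90), Zfp358 (0.90) and Smim19 (0.89). For Gstp1 they were Selenbp1 (0.93), Med22 (0.93), Maf1 (0.92), Adrm1 (0.92) and Cuedc2 (0.91). No GST was in either list, while Gstm1 and Gstp1 correlated with each other at 0.86. With the other GSTs, Gstm1 ran from -0.45 (Mgst1) to 0.53 (Gstm2) and Gstp1 from -0.36 (Mgst1) to 0.59 (Gstm4). The libraries share the diet and genotype groups. All 10 genes of these lists were lower with the diet in NaV1.5 atria, from -0.31 (Maf1) to -0.80 (9630028I04Rik). The correlations therefore describe the same 16 libraries and carry no test. In control atria the same 10 genes lay between -0.27 (Eml2) and -0.12 (Zfp358).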

How the data were processed

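The deposited values are unnormalised read-pair counts for each gene name, which the authors made with featureCounts 2.0.1 on an extended GENCODE vM25 annotation per the file headers. Strand was not used, and pairs over several genes or places were left out, per the same headers. STAR 2.7.6a and FastQC 0.11.7 on GRCm38 are named in the submitters' processing notes. No column was left without a sample.

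Counts were tested with edgeR 4.0.16 (R 4.3.3) by the quasi-likelihood F-test (filterByExpr, TMM, robust), 2-sided, with group and batch as terms. The 4 diet groups formed one fit, and vehicle with NR another. P-values were adjusted by Benjamini-Hochberg over all genes kept, at 0.05. The SE is the absolute log2 difference divided by the square root of F, not the standard error of the coefficient, and 95% intervals are 1.96 SE on each side. CPM used TMM over the 29 libraries. DESeq2 1.42.0, limma 3.58.1 and the alternatives described at the end were also run. The code was tested on simulated data.

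The members and gene lists were chosen with earlier results of these data known. Named genes are the members, up to 4 genes of each list with the smallest p in a comparison, and the 5 genes most correlated with Gstm1 and with Gstp1. Loci come from the annotation used for counting, GC content and shared transcript windows from GENCODE M21, and start-site windows from RefSeq.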

Additional observations from a re-analysis of the deposited data

Results flagged for a closer look

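Each gene was checked in each of the 6 groups for 1 library standing far from the rest of its group (Dixon's ratio at the 95% level). Of 60 gene and group combinations, 4 stood out, and chance gives about 1 in 20. Gstk1 stood at 189.3 CPM in NaV1.5_RD replicate 4, above the other 3 libraries at 109.9 to 115.0 CPM. Mgst1 stood at 111.0 CPM in the same library, where the other 3 read 65.9 to 69.6 CPM. Mgst1 also stood at 89.9 CPM in Ctrl_RD replicate 4, with the others at 62.5 to 65.5 CPM. Gstk1 was low in NaV1.5_HFD replicate 4, at 100.8 CPM, with the others at 120.2 to 123.5 CPM.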

How the results depend on the processing

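The count of GST genes called stayed at 0 in the control diet, genotype and interaction comparisons under every alternative run. For NR against vehicle it went from 0 to 3 of 10 with no batch term and to 4 with NR of batch 2 against vehicle. Over all genes, 4392 of 16482 were called with no batch term and 9851 of 16310 with NR of batch 2 against vehicle. The GST counts are therefore not particular to these genes. Under these 2 settings Gstm5 turned from -0.03 to 0.41 (adjusted p = 0.042) and 0.54 (3.19e-05), Mgst1 reached 1.05 and 1.29, and Gstm4 -0.34 and -0.42. Gstt1 turned to 0.31 in the second (adjusted p = 0.0220). Batch is not held constant in either. Other alternatives were DESeq2 size factors, 2 other low-count filters, 1 fit of all libraries, batch 1 or batch 3 alone, DESeq2, limma-voom, GC and length offsets, and leaving out each library. Of 630 single-gene values with a library left out, 586 kept their sign, and of 610 under other settings 569 did. Library numbers did not pair the samples: over 17 same-numbered pairs the correlation of deviations ran from -0.20 to 0.23, 8 were above 0.1, and in 4 the own number was highest. With a replicate block, on the 27 numbered libraries, calls over all genes went from 182 to 27 for the diet in NaV1.5 atria and from 70 to 0 for NR. The fit of the diet groups thereby also lost NaV1.5_RD replicate 4 and Ctrl_RD replicate 1, so block and omission are mixed in its calls. GST calls outside the contrast that chose them remained 0, and Gstm1 and Gstp1 differed by -0.42 and -0.36. The comparisons rest on 2 to 5 libraries a side, and the lowest count of a GST gene was 183.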
